A study of Mus musculus with 19 samples.

Results

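The Ly49 receptors, encoded by the Klra genes, were followed in the lungs of mice given a mixture of polycyclic aromatic hydrocarbons (PAHs). The family was defined by name as 8 genes (Klra1, Klra3, Klra4, Klra7, Klra8, Klra9, Klra10 and Klra16) of the 20660 gene symbols on the array. Its probes were selected by the RefSeq accession printed beside each probe, and each probe was kept apart because the genes are similar in sequence. The family was itself picked for its log2 ratios across these doses, so the dose differences of its members are described and carry no p-value. Probes were found for 7 of the genes, 13 in all, and Klra3 had none under its accessions. Of the 13 probes, 8 from 6 genes gave a lung signal well above background in at least 4 mice of 1 group, the filter for testing. All 8 passed it in the vehicle group, where they were highest, and Klra7 probe 2 passed it there alone, so a count over them is no support for a difference.

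The animals were male MutaMouse, aged about 12 weeks, a transgenic strain used for mutation assays and kept, per the study's methods, on a BALB/C-DBA/2 background. All were gavaged daily for 28 days and killed 72 h after the last dose. D0 (5 mice) received olive oil, the vehicle. D1 (4 mice), D2 (5 mice) and D3 (4 mice) received the 8PAH mixture in olive oil at daily doses of 15, 30 and 60 mg per kg body weight, counted as benzo[a]pyrene equivalents. Lung RNA, taken from the right lobe per the study's methods and labelled red, was hybridised on 19 arrays against a common reference, labelled green, that was made from 11 mouse cell lines. A level is given as the log2 ratio of lung over reference, which can be compared between mice for 1 probe but not between probes. The 2 arrays of mouse 35, of D3, were averaged.

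Natural killer (NK) cells are lymphocytes that kill infected or transformed cells without prior priming. In the mouse, Ly49 receptors let them read major histocompatibility complex (MHC) class I molecules on the cells they meet. Inhibitory Ly49 receptors carry a motif that recruits the phosphatase SHP-1 (Ptpn6) and restrain the cell, whereas activating ones lack it and signal through the adaptor DAP12 (Tyrobp). Each NK cell expresses some of the receptors and not others, and the set of Ly49 genes differs between inbred strains. Which Ly49 genes these mice carry, and whether a probe also bound the RNA of a near copy, was not tested.

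The genes lie side by side on chromosome 6. RefSeq (build GRCm38.p6, from C57BL/6J) gave 9 promoter windows for 7 of the 8 genes, all on the minus strand and within 320 kb, each from 250 bases before a transcription start to 50 after it. The 4 windows below belong to genes whose tested probes differed by -1.67 (Klra4) to -0.40 (Klra9) on the log2 scale between D3 and the vehicle, and they show how alike, and how unlike, the starts of these genes are. Capitals mark TTTCCTCTTTT, the longest run of letters that the 4 windows share (11 bases, found by comparing them). Each is written 5′ to 3′ along the gene.
Klra4, chr6:130067222-130067521: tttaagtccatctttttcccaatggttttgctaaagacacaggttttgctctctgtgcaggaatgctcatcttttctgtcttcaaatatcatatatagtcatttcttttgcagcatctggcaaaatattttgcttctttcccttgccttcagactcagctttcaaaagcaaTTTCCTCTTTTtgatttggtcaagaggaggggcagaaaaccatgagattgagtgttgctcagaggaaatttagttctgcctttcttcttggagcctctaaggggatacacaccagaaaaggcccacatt
Klra8, upstream start, chr6:130129849-130130148: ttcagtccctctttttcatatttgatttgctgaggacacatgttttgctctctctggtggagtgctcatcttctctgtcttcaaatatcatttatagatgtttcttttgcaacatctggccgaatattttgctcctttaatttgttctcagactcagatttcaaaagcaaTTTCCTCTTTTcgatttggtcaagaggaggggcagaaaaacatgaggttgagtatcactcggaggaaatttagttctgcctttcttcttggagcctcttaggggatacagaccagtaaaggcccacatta
Klra7, upstream start, chr6:130233273-130233572: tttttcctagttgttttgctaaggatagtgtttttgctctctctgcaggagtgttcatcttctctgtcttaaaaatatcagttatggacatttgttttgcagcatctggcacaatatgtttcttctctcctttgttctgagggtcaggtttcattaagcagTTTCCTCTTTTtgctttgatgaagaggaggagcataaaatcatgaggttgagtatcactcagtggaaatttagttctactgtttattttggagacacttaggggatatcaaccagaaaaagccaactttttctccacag
Klra9, chr6:130193063-130193362: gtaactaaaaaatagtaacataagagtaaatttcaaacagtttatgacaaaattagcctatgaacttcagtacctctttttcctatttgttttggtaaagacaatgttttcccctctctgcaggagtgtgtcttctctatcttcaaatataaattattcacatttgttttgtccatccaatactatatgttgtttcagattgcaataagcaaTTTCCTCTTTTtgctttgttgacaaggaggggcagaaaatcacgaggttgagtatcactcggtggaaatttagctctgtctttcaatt
The Klra4 and Klra8 windows were 86.0% identical in a global alignment. They were 73.7% and 74.3% identical to that of Klra7, in that order. The Klra9 window was 50.7% identical to that of Klra4 and 85.0% identical to that of Klra3. Gaps count as unlike in these shares, so windows set at different points of similar sequence score low. Klra9 and Klra4 had 185 identical bases in 235 aligned columns. The overlapping pair of Klra8 windows had 237 in 237 and still scored 65.3%. The marked run was chosen because these 4 windows share it, and the windows were picked with the dose differences known. Whether the run goes with those differences was not tested. Read on both strands, the run was also in the window of Klra3 and in the other Klra8 window, which overlaps the printed one. It was not in the downstream window of Klra7 or that of Klra10. Of all 32851 RefSeq windows of this length, 0.15% held it.

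Klra1 is shown for contrast in letters, since its window did not hold that run. It was picked with its values known, and its probe had the smallest differences from the vehicle as a ratio. On the lung channel alone its differences at D1 and D3 were not the smallest. Its capitals mark a Runx motif (TGTGGT) and a T-box motif (GGTGTGA), the only matches in it to 5 short motifs searched on both strands.
Klra1, chr6:130386825-130387124: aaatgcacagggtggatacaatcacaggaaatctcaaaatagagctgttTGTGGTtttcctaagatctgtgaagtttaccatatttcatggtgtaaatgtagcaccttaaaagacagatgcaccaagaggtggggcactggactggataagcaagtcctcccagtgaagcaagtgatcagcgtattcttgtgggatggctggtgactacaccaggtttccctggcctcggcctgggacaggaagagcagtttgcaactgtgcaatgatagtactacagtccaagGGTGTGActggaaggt
The core of the element bound by the aryl hydrocarbon receptor, which these hydrocarbons activate, (GCGTG) was in 0 of the 9 family windows and in 32.4% of all windows. The AP-1 motif TGANTCA was in 0 of the 9 and 7.8% of all. TGTGGT was in 1 of the 9 and 16.8% of all, GGTGTGA in 1 of the 9 and 4.0% of all, and the TCF/LEF motif CTTTGAA in 1 of the 9 (the downstream start of Klra7) and 5.1% of all. No searched motif overlaps another. The family windows were 33.0% to 47.0% G and C, and those of Klra8 overlap. The shares were not compared with windows of like composition, so an absence is not read as a lack of sites. These matches describe letters in a window and not binding.

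Klra4 encodes Ly49D, an activating receptor, and whether these mice carry the gene was not tested. Its single probe had log2 ratios of -0.10, -1.23, -0.005, -0.99 and -1.04 in the 5 vehicle mice. In D1 the values were -1.41, -2.12, -2.26 and -1.89, and in D2 they were -1.66, -1.85, -2.06, -2.09 and -1.86. In D3 they were -2.13, -2.03, -2.19 and -3.01. Every dosed mouse lay below every vehicle mouse. The vehicle mean was -0.67 ± 0.57 (SD, n = 5) and the D3 mean -2.34 ± 0.45 (SD, n = 4), a log2 difference of -1.67 ± 0.25 (SE), or 3.18-fold lower. At D1 and D2 the differences were -1.25 ± 0.25 and -1.23 ± 0.23. The size depended on the signal used, and with the scanner software's processed signals, which have background subtracted, the differences were -1.98, -1.88 and -3.19 from D1 to D3. The lung signal was well above background in 3 of 4 D3 mice and in all others, and mouse 35 was the exception. In bulk lung tissue, fewer cells of a type and less RNA per cell cannot be told apart.

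**Figure D1:**
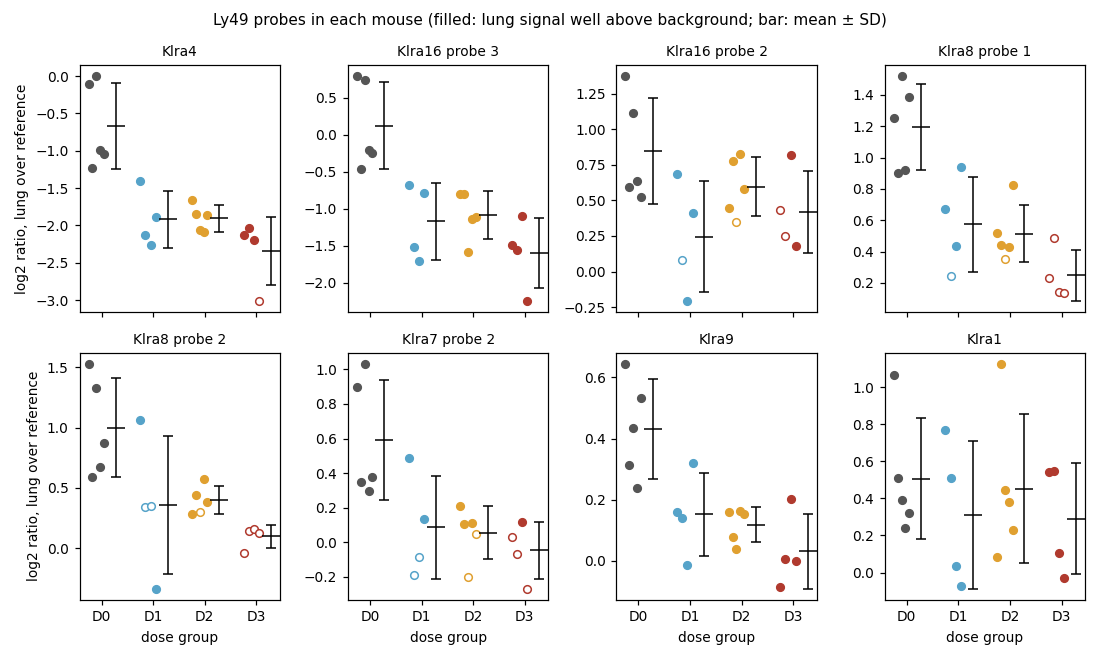
Log2 ratio of lung over reference RNA (y axis) in each mouse of D0 to D3 (x axis) for the 8 tested Ly49 probes, with filled points where the lung signal was well above background and bars for the mean ± SD. For Klra4, the vehicle mice lay between -1.23 and -0.005 and the D3 mice between -3.01 and -2.03, whereas the Klra1 groups overlapped.

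Klra16 encodes Ly49P, another activating receptor, and had 3 probes that did not give the same picture. Probe 3 read 0.79, -0.46, 0.74, -0.21 and -0.25 in the vehicle mice and -1.49, -1.56, -1.10 and -2.25 in D3. It was the brightest Ly49 probe, with a median lung signal of 666.5 units in D0 and 222.6 in D3, and it stayed above background in all 18 mice. Its log2 difference was -1.30 ± 0.29 (SE), -1.21 ± 0.27 and -1.72 ± 0.29 from D1 to D3, with no overlap with the vehicle mice at any dose, and -1.62, -1.47 and -2.22 with the processed signals. Probe 2 read 1.37, 0.59, 1.12, 0.64 and 0.53 in the vehicle mice and 0.44, 0.25, 0.82 and 0.18 in D3. Its groups overlapped, and its differences of -0.61 ± 0.19, -0.25 ± 0.18 and -0.43 ± 0.19 from D1 to D3 did not meet the call rule. With the processed signals they were -1.90, -0.72 and -1.47, and on the lung channel alone -0.19, -0.24 and -0.36. Mouse 24 of D1 had the lowest ratio, -0.21, at the highest lung signal, 201 units, and was the only mouse whose reference signal was above background, at 125.5 units. The lung signal of this probe was dim, with a D0 median of 152 units, and was above background in 2 of 4 D3 mice. Probe 1 was above background in 0 of 18 mice. A single statement for Klra16 is therefore not given.

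Klra8 encodes Ly49H, the activating receptor known for recognising the m157 protein of mouse cytomegalovirus. Whether these mice carry the gene, or its probes read a near copy, was not tested. Probe 1 read 1.25, 0.90, 1.52, 0.92 and 1.39 in the vehicle mice. In D1 it read 0.67, 0.24, 0.43 and 0.94, in D2 0.52, 0.44, 0.35, 0.43 and 0.82, and in D3 0.23, 0.49, 0.14 and 0.14. The D2 and D3 mice all lay below the vehicle mice, and mouse 25 of D1, at 0.94, lay among them. The vehicle mean was 1.20 ± 0.28 (SD, n = 5), the D3 mean was 0.25 ± 0.17 (SD, n = 4), and the differences were -0.62 ± 0.15 (SE), -0.68 ± 0.14 and -0.95 ± 0.15 from D1 to D3. Because the probe was well above background in 5 of 5 vehicle mice and 0 of 4 D3 mice, the D3 level is only a bound. On the lung channel alone, normalized between arrays, the mean log2 signal was 7.33 in D0 and 6.26 in D3, and the D3 signal was at least 2.08-fold lower when set no lower than each array's dimmest signal above background. On the ratio scale the measured difference was 1.93-fold, and with the processed signals the log2 differences were -1.39, -1.23 and -2.31 from D1 to D3.

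Probe 2 of Klra8 correlated with probe 1 at r = 0.67 over the 18 mice and at 0.12 as deviations from the group means. It read 1.53, 0.59, 1.33, 0.67 and 0.87 in the vehicle mice and -0.04, 0.14, 0.16 and 0.13 in D3, again above background in 5 of 5 and 0 of 4 mice. Its D3 difference was -0.90 ± 0.21 (SE) as a ratio, and on the lung channel alone at least 1.70-fold lower. D1 spread from -0.33 to 1.07, and the D1 and D2 differences of -0.64 ± 0.21 and -0.60 ± 0.20 did not meet the call rule. On the lung channel alone they were -0.37 and -0.54, and with the processed signals the differences were -2.44, -1.64 and -3.25 from D1 to D3. The lowest D1 ratio was that of mouse 25, whose lung signal of 236.5 units was the highest of the 18 mice and whose reference signal was 154.5 units. Probe 3 was above background in 0 of 18 mice. The reference RNA was not above background for probe 1 in any mouse, nor for probe 2 outside 1 mouse of D1, so these ratios rest on the lung signal over a background-level reference.

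Among the inhibitory receptors, Klra7, which encodes Ly49G, was measured by 1 of 3 probes. Probe 2 read 0.90, 0.35, 1.03, 0.29 and 0.38 in the vehicle mice and 0.03, -0.07, 0.12 and -0.27 in D3. The D2 and D3 mice all lay below the vehicle mice, and mouse 21 of D1, at 0.49, did not. It differed by -0.51 ± 0.16 (SE) at the lowest dose, -0.54 ± 0.15 at D2 and -0.64 ± 0.16 at D3, and by -2.05, -1.64 and -2.47 with the processed signals. At D3 the lung signal was above background in 1 of 4 mice. Probe 1 of Klra7 was above background in 2 vehicle mice and no dosed mouse, and probe 3 in none.

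Klra9 encodes Ly49I, an inhibitory receptor, and was above background in all 18 mice with little spread. It read 0.64, 0.31, 0.43, 0.24 and 0.53 in the vehicle mice, 0.16, 0.14, -0.01 and 0.32 in D1, and -0.09, 0.007, 0.20 and -0.001 in D3. The D2 mice lay between 0.04 and 0.16. D2 and D3 did not overlap with the vehicle group, yet the differences of -0.28 ± 0.09 (SE), -0.31 ± 0.08 and -0.40 ± 0.09 stayed under 1.5-fold. With the processed signals they were -0.75, -0.77 and -0.86, which met the call rule at D1 and D3.

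Klra1 encodes Ly49A, the inhibitory receptor through which recognition of MHC class I by NK cells was first described. It was above background in all 18 mice and read 1.06, 0.51, 0.39, 0.24 and 0.32 in D0, 0.77, 0.51, 0.04 and -0.07 in D1, and 0.54, 0.55, 0.10 and -0.03 in D3. In D2 it ran from 0.08 to 1.13. The groups overlapped at every dose, and the differences were -0.20 ± 0.21 (SE), -0.05 ± 0.20 and -0.22 ± 0.21. With the processed signals they were -0.30, -0.10 and -0.32. On the lung channel alone the Klra1 signal was 1.35-, 1.11- and 1.42-fold lower from D1 to D3. That of Klra9 was 1.22-, 1.29- and 1.36-fold lower. Klra10, which encodes the inhibitory Ly49J, was above background in 0 of 18 mice.

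**Figure D2:**
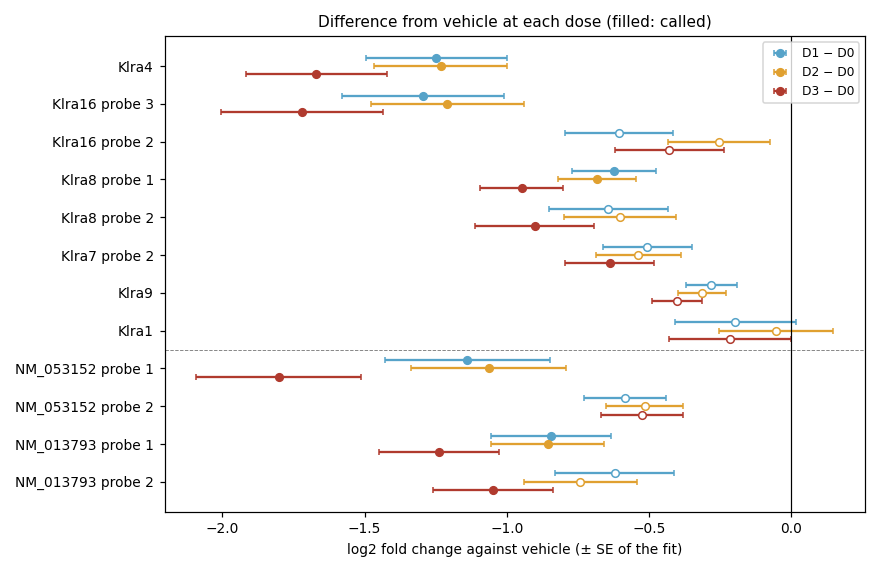
Log2 fold change against D0 with the SE of the fit (x axis) for the 8 tested Ly49 probes and, below the dashed line, 4 probes of a pair of unnamed Ly49 accessions, with filled points where the call rule was met. The values at D3 ran from -1.72 for Klra16 probe 3 to -0.22 for Klra1 among the Ly49 probes.

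A probe was called where limma's Benjamini-Hochberg adjusted p over all 30999 tested probes was at most 0.05 and the change at least 1.5-fold. Of the 8 Ly49 probes, 3 were called lower at D1 (Klra4, Klra8 probe 1 and Klra16 probe 3), against 0.465% of all tested probes. The same 3 were called lower at D2, against 0.19% of all. At D3, 5 were called lower (those 3, Klra8 probe 2 and Klra7 probe 2), against 1.23% of all. Every mouse of the dose lay below every vehicle mouse for 2 of 8 Ly49 probes at D1, 6 at D2 and 6 at D3, where the shares of all probes were 4.19%, 1.6% and 7.17%. The rule that picked the family used these contrasts, so nothing is read from the counts. With median centring of the arrays in place of loess, 0, 0 and 3 of the 8 were called lower from D1 to D3, and with the scanner software's processed signals 3, 0 and 6. That centring put the median log2 difference of all tested probes at 0.17, 0.12 and 0.06 from D1 to D3. Under it Klra4 differed by -0.996, -1.01 and -1.53 and Klra8 probe 1 by -0.61, -0.68 and -0.94. Klra1 at D2 was 0.05. With loess, the median log2 difference of the 8 probes was -0.61 at D1, -0.57 at D2 and -0.77 at D3, beside 0.0066, -0.0035 and -0.002 over all tested probes.

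Neighbouring doses were set side by side. From D1 to D2 the ranges overlapped for 8 of 8 probes, and the means differed by less than the larger SD for 8 of 8. From D2 to D3 the mean was lower for 8 of 8 probes. That step exceeded the larger SD for 3 of them, Klra8 probes 1 and 2 and Klra16 probe 3, and the ranges parted for Klra8 probe 2 alone. Both Klra8 probes were above background in 0 of 4 D3 mice. Their D3 means and SDs are therefore those of background-level signals, and their step is not a measured size. At D1, leaving out mouse 21 raised the number of probes called lower from 3 to 6. At D3 the number was 4 to 5 whichever mouse was left out.

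Several of these values depended on which mice were counted. Vehicle mice 1 and 3 were the 2 highest of the 5 for 5 of the 8 Ly49 probes. For Klra4 they read -0.10 and -0.005, while the other vehicle mice lay between -1.23 and -0.99. For Klra16 probe 3 they read 0.79 and 0.74, and the others -0.46 to -0.21. Without mouse 1 the D3 difference was -1.53 for Klra4 and -1.56 for Klra16 probe 3. Without mouse 3 it was -1.50 and -1.57, and without mouse 35 of D3 it was -1.45 and -1.504. The calls, which rest on the contrasts that picked the family, are listed as a description. At D1, Klra8 probe 1 was not called without mouse 3, without mouse 5, without mouse 22 or without mouse 24. At D2, Klra16 probe 3 was not called without mouse 1, without mouse 3 or without mouse 28. At D3, Klra7 probe 2 was not called without mouse 1, without mouse 3 or without mouse 35.

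The arrays lay on 3 slides that each held all 4 groups. At D3 the within-slide difference from the vehicle mean was -1.41, -2.09 and -2.01 for Klra4 on slides 1 to 3, and -0.52, -0.22 and -0.56 for Klra9. Each rests on 1 or 2 mice a group. Mouse 35 had 1 array on slide 2 and 1 on slide 3, where it was the only D3 mouse, so these values do not come from separate mice. Slide itself, which played no part in choosing the family, was tested as a term beside dose. It was significant for 1 of the 8 Ly49 probes, Klra1, which was lower on the slides numbered 2 and 3 than on slide 1 by log2 -0.50 and -0.63 (limma F test, adjusted p = 0.0019), against 17.3% of all probes. On the red channel alone, slide was significant for 0 of the 8. The column of an array on its slide followed dose, so that column and dose cannot be told apart.

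**Figure D3:**
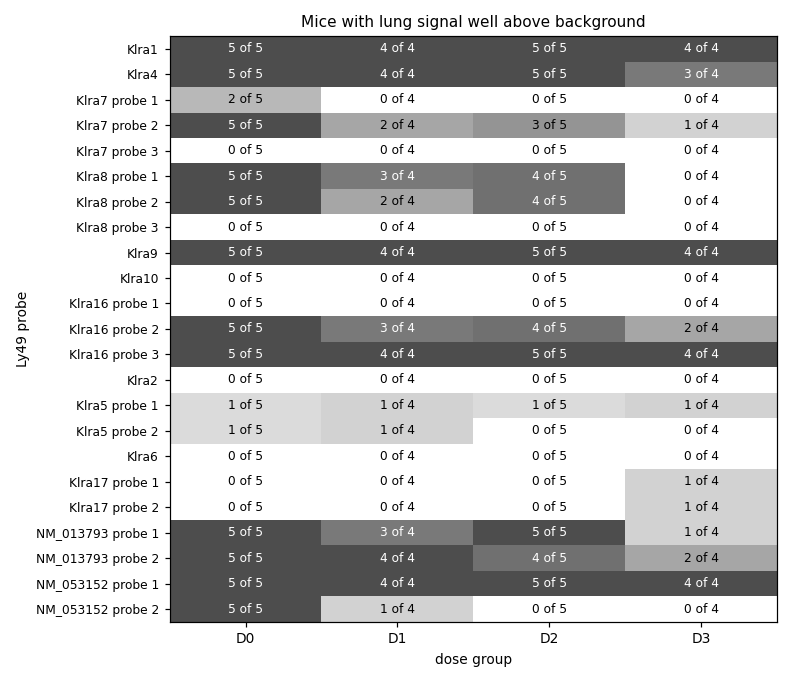
Number of mice in each dose group (x axis) with a lung signal well above background for every Ly49 probe on the array (y axis), darker for a larger share. Both Klra8 probes that were measured went from 5 of 5 vehicle mice to 0 of 4 D3 mice, while Klra1, Klra9 and Klra16 probe 3 were above background in every mouse.

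The other Ly49 symbols on the array were too dim to test. Klra2 (Ly49B), Klra5 (Ly49E), Klra6 (Ly49F) and Klra17 (Ly49Q, known from myeloid and plasmacytoid dendritic cells) had 6 probes, and none met the filter. Klra5 probe 1 was above background in 4 of 18 mice, 1 in each group, Klra5 probe 2 in mouse 5 of D0 and mouse 24 of D1, and the Klra17 probes in 1 mouse each, both times mouse 34 of D3.

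A further 4 probes carried a pair of Ly49 accessions that the RefSeq table did not hold, NM_053152 and NM_013793. The study's gene lists name them Klra22 and Klra15, and the table gives Klra22 as an older name of Klra1. They were looked up after the values of the family were seen, in lists that the study drew from these samples, so they too are described without a p-value. Probe 1 of NM_053152 read 0.91, -0.60, 0.78, -0.26 and -0.33 in the vehicle mice and -1.69, -1.38, -1.39 and -2.35 in D3. Its differences were -1.14 ± 0.29 (SE), -1.06 ± 0.27 and -1.80 ± 0.29 from D1 to D3. Probe 2 of that accession was above background in 5 of 5 vehicle mice and 0 of 4 D3 mice, so it passed the filter through the vehicle group alone, and its D3 level is only a bound. On the lung channel alone it was at least 1.496-fold lower in D3. The Klra1 probe, at -0.22 ± 0.21, did not share the course of NM_053152 probe 1.

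Probe 1 of NM_013793 read 0.43, -0.79, 0.36, -0.18 and -0.37 in the vehicle mice and -1.29, -1.24, -1.13 and -1.74 in D3. Its log2 differences were -0.85 ± 0.21 (SE), -0.86 ± 0.20 and -1.24 ± 0.21 from D1 to D3, and that of probe 2 was -1.05 ± 0.21 at D3. Both rest on dim signals there, since probe 1 was above background in 1 of 4 D3 mice and probe 2 in 2 of 4, against 5 of 5 vehicle mice each. All 4 probes were measured on the same arrays as the family, and vehicle mice 1 and 3 were again the 2 highest for 3 of them.

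The members were compared with each other over the 18 mice. Among the 28 pairs of tested probes, Pearson's r of the log2 ratios had a median of 0.79 and ran from 0.15 to 0.97. Taken as deviations from the group means, which removes dose, it had a median of 0.55 and ran from -0.07 to 0.92. All probes of a mouse share the array and its normalization, and some share sequence, so r is a description.

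The mean of the 8 probes served to look for other genes with the same course. It was 0.50 ± 0.35 (SD, n = 5) in D0, -0.17 ± 0.28 (n = 4) in D1, -0.11 ± 0.12 (n = 5) in D2 and -0.36 ± 0.19 (n = 4) in D3. The 8 genes most like it over 18 mice were Ccl5 (r = 0.95), Gzma (0.93), Zfp658, Pacsin1, Med1, Rpl36a, Dvl3 and 4933405E24Rik (0.87 to 0.89). As deviations from the group means, the 8 most like it were Klre1 (r = 0.89), Gzma (0.87), Ccl5 (0.86), Skor1 (0.84), Gzmb (0.81), Pdik1l (0.80), Sytl3 and Sp4 (0.79 each). Gzma and Gzmb encode granzymes, the proteases of cytotoxic granules, Ccl5 a chemokine of NK and T cells, and Klre1 a lectin receptor of NK cells from the same gene complex. Klre1 itself changed by -0.40 ± 0.16 (SE) at D3, which did not pass (limma, adjusted p = 0.11). The NK receptor gene Ncr1 (NKp46) reached r = 0.85 over all mice and 0.79 within groups, and Prf1 0.83 and 0.67. Other NK genes were less alike within groups, with 0.60 for Il2rb, 0.55 for Tbx21, 0.53 for Klrb1c, 0.52 for Eomes and 0.25 for Klrd1. The pan-leukocyte gene Ptprc reached 0.41 over all mice and 0.67 within groups, and the T cell gene Cd3e 0.18 and 0.43.

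**Figure D4:**
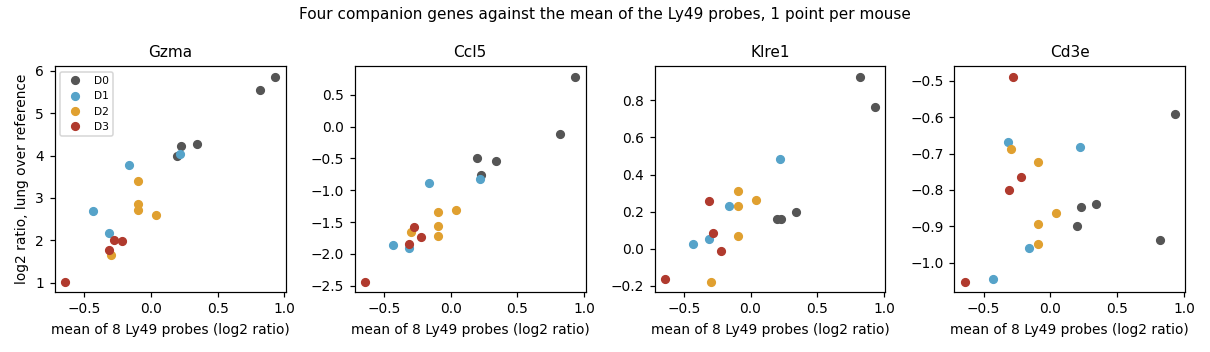
Log2 ratio of Gzma, Ccl5, Klre1 and Cd3e (y axes) against the mean log2 ratio of the 8 tested Ly49 probes (x axes), 1 point per mouse and coloured by dose group. Over the 18 mice r was 0.93 for Gzma, 0.95 for Ccl5, 0.86 for Klre1 and 0.18 for Cd3e.

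Genes that work with the receptors, or mark the cells that carry them, were taken from 10 lists and read from the same fit, each gene by its brightest probe. Over all tested probes, 1.06% were called in either direction at D1, 0.626% at D2 and 2.43% at D3. Of the 16 tested NK identity and effector genes, 3 were called lower at D1, 3 at D2 and 5 at D3, and 0 were called higher at any dose by limma. An unadjusted p under 0.05 held for 7, 8 and 7 lower genes and for 0, 1 and 1 higher genes. The shares above are for the call rule. For counts at an unadjusted p, or at an adjusted p without the fold limit, here and below, no share of all probes was computed. Nothing is read from those counts. The list's median log2 difference was -0.28, -0.33 and -0.32, and that of 15 lung tissue markers was -0.28, -0.07 and -0.31. The calls depended on the normalization. With median centring in place of loess, 0 genes of the 10 lists were called at D1 or D2 and 2 at D3, Gzma at -2.81 and S100a8 at 1.86 (limma, adjusted p = 0.0075 and 0.020), in place of 13 genes at any dose, and the list medians were -0.13, -0.15 and -0.24 for the NK genes and 0.05, 0.16 and -0.07 for the lung tissue markers.

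Gzma, which encodes granzyme A, had the largest difference of the 5. It read 5.86, 3.98, 5.55, 4.22 and 4.27 in the vehicle mice and 1.78, 2.02, 2.00 and 1.03 in D3, with vehicle mice 1 and 3 again highest. It was called lower at every dose, with log2 differences of -1.60 ± 0.43 (SE), -2.13 ± 0.40 and -3.07 ± 0.43 from D1 to D3 (limma, adjusted p = 0.037, 0.0073 and 0.00016). The D1 call was lost on the lung channel alone (limma, adjusted p = 0.051) and without mouse 1, mouse 3, mouse 22 or mouse 24. Ccl5 fell by 1.68 ± 0.28 at D3 (adjusted p = 0.00071 with limma), and by 1.33 with median centring (adjusted p = 0.077 with limma). The other 3 called at D3 were Ccl4, another chemokine, at -0.73, Prf1, the pore-forming perforin, at -0.66, and S1pr5, a receptor that lets NK cells leave tissues, at -0.61. The Prf1 call was lost without mouse 3, at -0.58 (limma, adjusted p = 0.0038). That of S1pr5 was lost without mouse 1 (-0.44), mouse 3 (-0.575) or mouse 34 (-0.55). It was also lost with the deposited log2 ratios (-0.56) and with normexp background correction (-0.58). In each of these the change fell under 1.5-fold while limma's adjusted p stayed under 0.05. With median centring both calls were lost (limma, adjusted p = 0.65 for Prf1 and 0.18 for S1pr5). Ncr1 differed by -0.38 ± 0.14 (limma, adjusted p = 0.090) and Il2rb, a shared chain of the interleukin-2 and interleukin-15 receptors, by -0.14 ± 0.16 (limma, adjusted p = 0.62).

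Of 10 tested transcription factors of NK cells, 2 were called lower at D3, Tbx21 (T-bet) at -0.71 ± 0.15 and Nfil3 at -0.66 ± 0.16, and 1 was called higher, Prdm1 (Blimp-1) at 0.97 ± 0.13 (limma, adjusted p = 0.0039, 0.010 and 0.00012). With median centring these values were -0.73, -0.46 and 1.01 and none was called (limma, adjusted p = 0.057, 0.85 and 0.14). The Tbx21 call was also lost without mouse 1, at -0.57 and so under 1.5-fold (limma, adjusted p = 0.0069). With the processed signals it was lost at -1.05 (limma, adjusted p = 0.13). Eomes, which with T-bet directs NK maturation, differed by -0.55 ± 0.10 (limma, adjusted p = 0.0016), under 1.5-fold. Nfil3 and Prdm1 are also expressed by other lung cells.

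The NK gene complex, which holds the Ly49 genes, also holds other lectin genes. Of 11 tested, 9 lay below 0 at D3, with a median log2 difference of -0.29. By limma 0 were called lower at any dose, and 2, 4 and 6 were lower at an unadjusted p under 0.05 from D1 to D3. At D3, 3 had an adjusted p of at most 0.05 with a change under 1.5-fold. These included Klrb1c (NK1.1) at -0.57 ± 0.13 and Klrg1, a receptor of mature NK cells, at -0.58 ± 0.13 (limma, adjusted p = 0.0057 and 0.0056). Cd69, an activation marker in the same complex, was higher by 0.87 ± 0.13 at D2 and 0.80 ± 0.14 at D3 (limma, adjusted p = 0.0010 and 0.0011), and by 0.92 and 0.77 with median centring (limma, adjusted p = 0.12 and 0.20). Klrd1 (CD94) differed by -0.35 ± 0.20, which did not pass (limma, adjusted p = 0.29). Klrk1 (NKG2D) and Klrc1 (NKG2A) were above background in 0 mice.

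**Figure D5:**
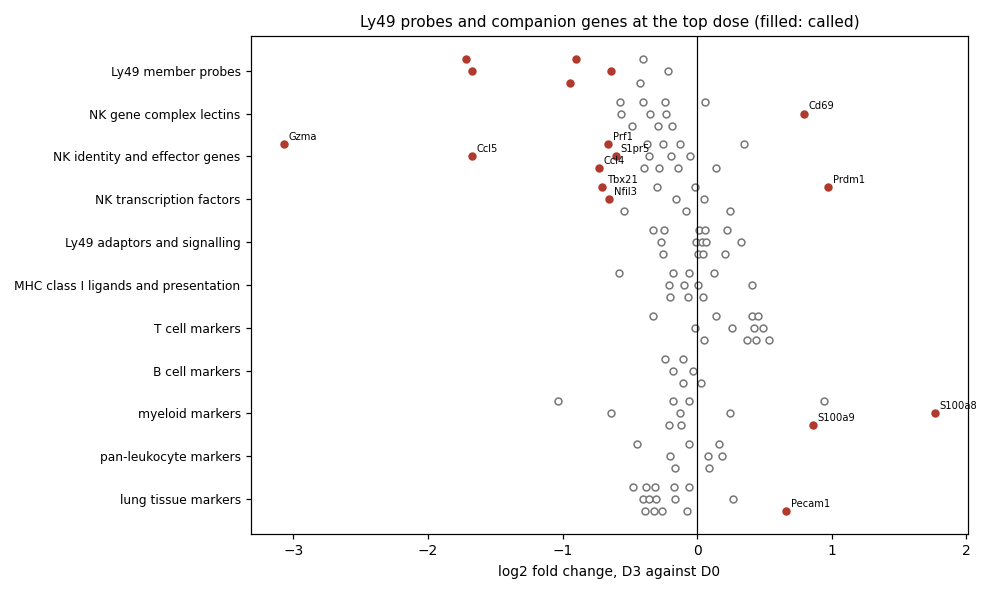
Log2 fold change of D3 against D0 (x axis) for the 8 tested Ly49 probes and for each tested gene of the 10 companion lists (rows), filled and named where the call rule was met. Gzma lay farthest to the left at -3.07, and no adaptor, MHC class I, T cell or B cell gene was called.

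On the signalling side, 0 of 14 tested adaptor and kinase genes were called at any dose by limma, and 0, 3 and 2 had an unadjusted p under 0.05 from D1 to D3. Tyrobp, the partner of the activating receptors, differed by 0.21 ± 0.23 (SE) at D3, Hcst, the adaptor DAP10, by 0.06 ± 0.18, and Ptpn6 by 0.22 ± 0.15 (limma, adjusted p = 0.61, 0.87 and 0.37). On the ligand side, 0 of 11 tested genes of MHC class I and its peptide loading were called at any dose by limma. From D1 to D3, 5, 2 and 2 had an unadjusted p under 0.05. All 5 at D1 were higher, and the list median was 0.195 at D1, 0.04 at D2 and -0.07 at D3. H2-K1 differed by -0.07 ± 0.14, H2-D1 by 0.005 ± 0.10 and B2m by -0.18 ± 0.17 at D3 (limma, adjusted p = 0.79, 0.98 and 0.55). At an adjusted p of at most 0.05 without the fold limit, 2 adaptor genes and 1 MHC class I gene passed at D3. The share of all tested probes that passed on that rule was not computed.

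Markers of other cells were read beside these values. At D3, 0 of 12 tested T cell markers, 0 of 6 B cell markers and 0 of 8 pan-leukocyte markers were called by limma, and their medians were 0.39, -0.11 and 0.007. An unadjusted p under 0.05 held for 8 T cell markers (7 higher and 1 lower), 0 B cell markers and 1 pan-leukocyte marker. The share of all tested probes at that threshold was not computed. The T cell list mean ran from -0.34 to 0.06 in the vehicle mice and -0.06 to 0.48 in D3, and that of the NK identity and effector list from 0.34 to 1.00 and from -0.02 to 0.26. Cd3e differed by 0.05 ± 0.11 and Ptprc (CD45) by -0.06 ± 0.16 (limma, adjusted p = 0.83 and 0.85). Of 11 tested myeloid markers, 2 were called, the neutrophil calprotectin genes S100a8 and S100a9, which were higher at D3 by 1.77 ± 0.33 and 0.86 ± 0.25 (limma, adjusted p = 0.0018 and 0.029). The S100a9 call was lost without mouse 1, 2, 5, 32 or 34, with median centring, and with the processed signals, where the value was 0.36 (limma, adjusted p = 0.59 and 0.41 for these 2 settings). At D2 the myeloid gene Siglecf was called lower, at -1.05 ± 0.26 (limma, adjusted p = 0.036), and at D3 it differed by -0.64 ± 0.27 (limma, adjusted p = 0.13). It was named after its values were seen, and its D2 call was lost without any 1 of the 5 vehicle mice, mouse 23 or mouse 26, with mouse 23 counted in D1, on the lung channel alone, with the processed signals and with median centring (limma, adjusted p = 0.050 to 0.52 over these settings). The myeloid list mean ran from 3.04 to 3.44 in the vehicle mice and 3.06 to 3.60 in D3. The mean of 15 lung tissue markers lay between 5.195 and 6.007 in every mouse, and 1 of them was called at D3, Pecam1 of endothelium, higher by 0.66 ± 0.15 (limma, adjusted p = 0.0067), and by 0.74 with median centring and 0.63 with the processed signals, where it was not called (limma, adjusted p = 0.82 and 0.072). Sftpc (surfactant protein C) differed by -0.32 ± 0.24 (limma, adjusted p = 0.42). The part of these in the Ly49 values was not tested.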

How the data were processed

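The intensity of each spot was deposited as median pixel brightness in both channels, with no normalization, and also as a signal that the scanner's software had already processed. A deposited table of the whole series gives log2 ratios normalized by the authors. Ratios computed here correlated with that table at r = 0.995 to 0.998 per array. Per the file headers the software was Feature Extraction 11.0.1.1.

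Control spots (3671 of 62976) and outlier spots (171 to 323 an array) were dropped. The median signals, with no background subtracted, were loess-normalized within arrays (span 0.3), and spots of a probe were averaged. The lung channel was above background in 54.5% to 64.7% of spots per array, its median signal was 114 to 151.5, and 0 spots were saturated. The number of mice limits the precision. Of 55681 probes, 80 lacked values and 30999 passed the filter. Groups were compared with limma 3.58.1 (R 4.3.3) in 1 model of 18 mice, and the fit was tested on simulated data. Symbols came from RefSeq (GRCm38.p6), which matched 21465 of 22765 RefSeq-type identifiers. The study used MAANOVA, which was not installed. Probe and protein sequences were not used here.

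The members, lists and tests were chosen with earlier results of these data known. Named genes were every Ly49 probe, 19 set companion genes (1 is not reported here), up to 4 per list with the largest change among those called at D3, and the 8 genes most correlated with the Ly49 mean by each of 2 measures. S1pr5, Klrg1, Klrc1 and Siglecf were named after their values were seen. Groups came from the labels. Mouse 23, labelled D2, has a number that falls among those of D1, and the study's methods count 1 mouse more in D1. It was kept in D2, with the alternative in D1. No dyes were swapped, so ratios are open to dye bias. Promoter windows were aligned with Biopython 1.88. Alternatives covered the normalization, the filter, the slide as a block and each mouse left out.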

Additional observations from a re-analysis of the deposited data

Results flagged for a closer look

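Over 32 groups (8 probes, 4 doses), 2 mice lay far from the rest of their group by Dixon's ratio, and chance flags about 1 in 20. Mouse 35 of D3 had a Klra4 log2 ratio of -3.01, and the nearest D3 mouse had -2.19. Mouse 31 of D3 had a Klra8 probe 2 log2 ratio of -0.041, and the nearest D3 mouse had 0.13, both on a signal not above background.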

How the results depend on the processing

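The fold values of the 8 Ly49 probes kept their sign in 676 of 681 recomputed values, and 5 had the other sign. The 20 that moved by more than the spread between mice came in 19 cases from the scanner software's processed signals. Median centring in place of loess left 0 Ly49 probes called lower at D1, 0 at D2 and 3 at D3, and 2 companion genes called in place of 13. The processed signals left 0 at D2. Requiring a signal above background in all mice left 3 Ly49 probes to test and 1 called lower at each dose. With the adjusted p alone, 26 companion genes passed, and the share of all tested probes was not computed for it. The red channel alone gave 0 Ly49 probes with a slide difference. Leaving out each mouse gave between 2 and 6 probes called lower at D1, between 2 and 3 at D2 and between 4 and 5 at D3, 10 to 17 companion genes, and 1 probe with a slide difference. With mouse 23 in D1 the counts were 3, 3 and 5. The cause of these shifts was not tested. Signals near background limit Klra7, Klra8 and Klra16 probe 2. The groups share no replicate numbers. With the slide as a block the counts were also 3, 3 and 5.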
